A study of Arabidopsis thaliana with 41 samples.

Results

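Slow soil drying was followed in rosette leaves of Got-22, a natural accession of Arabidopsis thaliana from Göttingen in Germany. All arrays labelled Got-22 were taken, 3 from dry pots and 3 from wet pots, which made 6 of the 41 arrays analysed. The dry Got-22 plants lost soil water stepwise until about 50% of the available water remained on day 5, and the wet Got-22 plants were held near 90% over the same days. All plants grew 1 to a pot of about 150 ml of ceramic medium under a 10 h photoperiod at 330 µmol per square metre per second, with air at 23 °C in the light and 18 °C in the dark and humidity at 60%. The other 35 arrays came from dry and wet plants of Bil-5, Eden-1, Omo2-3, Tamm-2, Ull2-5 and Ag-0, with 3 arrays in every group except dry Ag-0 with 2. These are unmodified wild accessions, and only these 7 accessions are treated. Replicates are biological by the design text, which gives neither the age of the plants nor how many stand behind an array.

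Plants that sense drying soil make more abscisic acid, which binds PYR/PYL receptors, releases kinases from clade A protein phosphatases and switches on protective genes such as late embryogenesis proteins. Mild drying that plants can adjust to acts on leaf growth, to which auxin contributes, and on photosynthesis. The chloroplast NDH complex is one photosynthetic component treated below: it takes electrons from ferredoxin and returns them to plastoquinone, so that they cycle around photosystem I, with which it forms a supercomplex.

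Values were log2 signals of 21164 loci, so a change of 1 is 2-fold and a change of 2 is 4-fold. Every change is dry minus wet, with its standard error from a limma fit over all 41 arrays, and p-values were adjusted over all loci with a threshold of 0.05. Array medians of the 6 Got-22 arrays lay between 5.69 and 5.77. A group mean below 4.38, the 25th percentile of all values, is called near the array floor. The rosette leaf label was checked on leaf mesophyll markers, of which RCA, the activase of Rubisco, averaged 12.91 ± 0.28 on dry and 12.40 ± 0.28 on wet arrays (SD, n = 3 each). LHCB3, an antenna protein of photosystem II, averaged 13.37 ± 0.24 on dry and 12.73 ± 0.23 on wet arrays (SD, n = 3 each). Of the 8 floral organ markers 7 were near the floor in both groups. No value is given here for the other 4 mesophyll markers.

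Dry arrays 1 and 3 were the least alike of the dry arrays, correlating at 0.9726, while dry array 2 correlated with them at 0.9839 and 0.9807. The array quality weight of dry array 2 was 2.736, against 0.607 and 0.684 for dry arrays 1 and 3. On average, dry array 2 also lay closer to the wet arrays than to its own group. Dry array 2 correlated at 0.9851 on average with the 3 wet arrays and at 0.9823 with the other 2 dry arrays, and its closest partner was wet array 1, at 0.9877. Deviations of these 2 arrays from their own group means correlated at 0.603 across loci. The jasmonate and ethylene list shows the pair plainly. PDF1.2A, a defensin used as a marker of jasmonate and ethylene signalling, had log2 signals of 6.85, 12.35 and 5.24 on dry arrays 1 to 3, against 13.08, 11.16 and 8.96 on wet arrays 1 to 3; it is named here after its values were seen. The groups overlapped, because dry array 2 lay within the range of the wet arrays. Of the 17 measured genes on that list, 15 were highest of the dry arrays on dry array 2 and 16 were highest of the wet arrays on wet array 1. Photosynthesis genes had the opposite order: of 27 genes of photosystems, antenna and Rubisco, 24 were lowest on dry array 2 among dry arrays and 26 were lowest on wet array 1 among wet arrays. What sets these 2 arrays apart was not tested. Values without them are given below beside some of the lists, but not for the gene families. In all, 6 of the 41 arrays correlated better with the other water level of their accession.

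**Figure D1:**
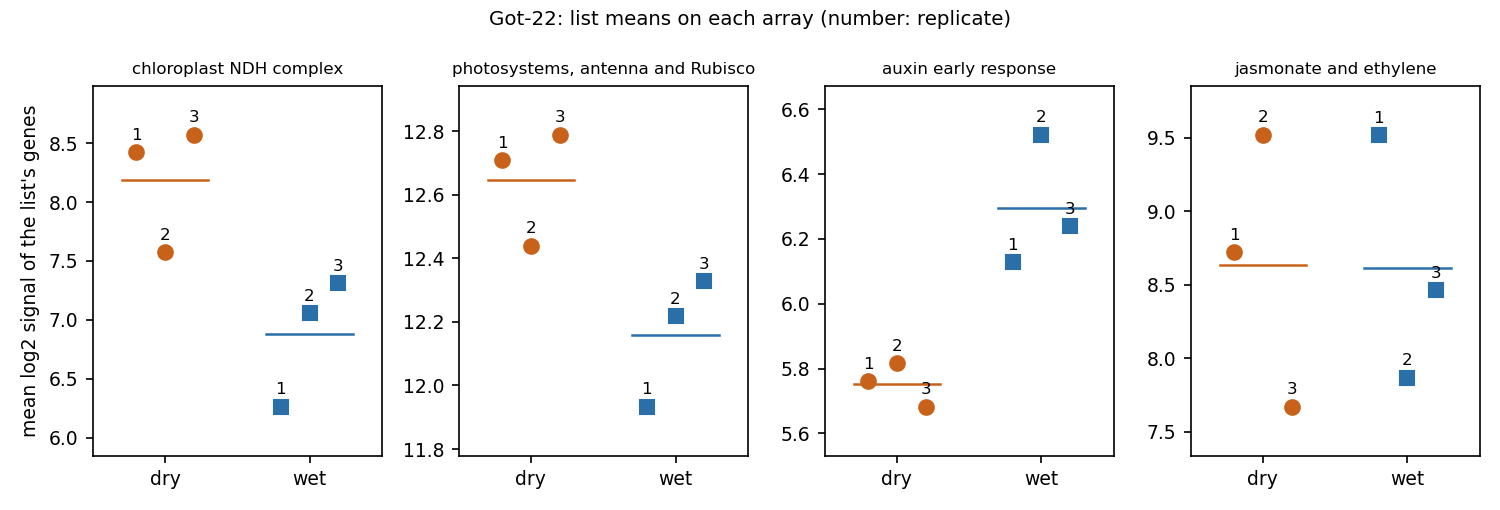
Mean log2 signal of 4 gene lists (vertical axis, a scale of its own in each panel) on each Got-22 array, with dry arrays as circles on the left, wet arrays as squares on the right, the replicate number beside each point and a line at the group mean. Dry array 2 and wet array 1 reach 9.52 for the jasmonate and ethylene list, where dry and wet arrays overlap, while the other 3 lists separate dry from wet arrays.

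Drying changed 20 of 21164 loci in Got-22 leaves by the adjusted p, which is 0.0945% of those tested: 12 rose (0.0567%) and 8 fell (0.0378%). At an unadjusted p under 0.05 there were 2012 loci (9.51%), 1011 higher (4.78%) and 1001 lower (4.73%). The 3 dry arrays lay all above the 3 wet arrays at 1435 loci (6.78%) and all below at 1696 (8.01%). Among the 20 called loci this held for all 12 that rose and all 8 that fell. Their median change in size was 0.95, and the smallest was 0.50, while the median over all loci was 0.11. Calls depended on single arrays: 1 of the 20 calls was left without dry array 1, 15 without dry array 2, 3 without dry array 3, 9 without wet array 1, 9 without wet array 2 and 13 without wet array 3.

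Largest of all was the rise of AT3G53980, with log2 signals of 12.94, 11.63 and 11.65 on dry arrays 1 to 3, against 7.26, 8.13 and 6.84 on wet arrays. AT2G37870 had signals of 10.22, 9.41 and 9.03 on dry arrays, against 5.84, 5.80 and 5.89 on wet arrays. In both, every dry array lay far above every wet array, and the 3 wet values of AT2G37870 were nearly equal. The changes were 4.66 ± 0.90 (adjusted p = 0.0281) and 3.71 ± 0.73 (adjusted p = 0.0309). The gene table gives no name for either locus, and they were placed on a list of lipid transfer proteins, small secreted proteins that carry lipids and are abundant at the leaf surface, from general knowledge. Both calls were fragile: AT3G53980 lost its call on removal of any 1 array but dry array 2, and AT2G37870 on removal of any 1, with changes of at least 4.23 and 3.38 throughout. On the same list, AT4G33550 had signals of 8.58, 7.17 and 6.30 on dry arrays, against 4.21, 4.71 and 4.37 on wet arrays, again without overlap, a change of 2.92 ± 0.93 that missed the threshold (adjusted p = 0.247).

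The classic lipid transfer genes of the list looked different. LTP4 had signals of 10.93, 10.24 and 9.80 on dry arrays, against 9.35, 8.67 and 8.12 on wet arrays, a change of 1.61 ± 1.07 (adjusted p = 0.701). LTP3 had signals of 11.25, 10.79 and 9.76 on dry arrays, against 10.13, 9.75 and 9.51 on wet arrays, a change of 0.80 ± 0.91 (adjusted p = 0.881). Dry arrays lay above wet arrays for LTP4 and overlapped them for LTP3. In the other 6 accessions the mean changes were 3.28 for LTP4 and 2.90 for LTP3. Ull2-5 among them barely changed, at 0.16 for LTP4 and -0.12 for LTP3. Its wet means were the highest of those accessions, at 8.36 for LTP4 and 9.06 for LTP3. The wet Got-22 mean of LTP3, 9.80, was above the wet means of the other 6 accessions, which ran from 5.38 to 9.06, whereas the dry Got-22 mean of 10.60 lay within their dry range of 7.02 to 10.66. The wet Got-22 mean of LTP4, 8.71, was likewise above the other wet means of 4.97 to 8.36, and the dry mean of 10.32 was above the other dry means of 8.33 to 10.17. A difference between Got-22 and the others in the change itself was not called for either gene, at -2.09 for LTP3 and -1.66 for LTP4. Among all 15 lipid transfer loci 2 rose and 0 fell, 5 had every dry array above the wet ones and 3 had every dry array below, and the median change was 0.24 against -0.0048 over all loci. Over all loci 0.0567% rose, 6.78% had every dry array above and 8.01% every dry array below. The median stayed between 0.25 and 0.28 without dry array 2, wet array 1 or both, while 1 rise was left without dry array 2 and 0 without wet array 1 or both. EARLI1 and AZI1, related proteins with a proline-rich stretch, were among the lower ones, at -1.77 ± 0.73 and -1.50 ± 0.67, neither called; AZI1 is named after its values were seen.

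**Figure D2:**
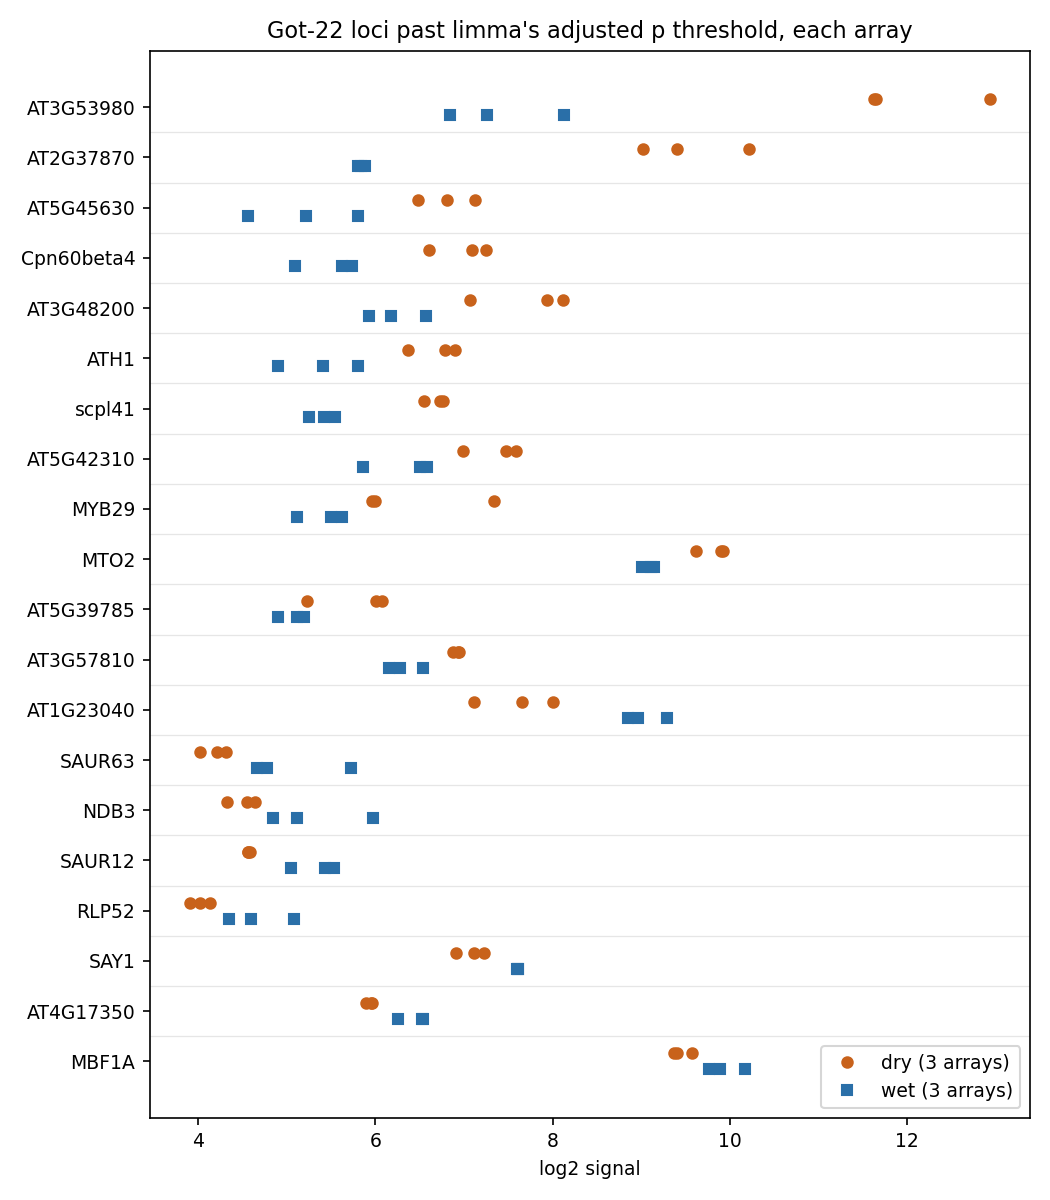
Log2 signal (horizontal axis) of the 20 loci past the threshold in Got-22, 1 locus a row, with the 3 dry arrays as circles above the 3 wet arrays as squares. In every row the dry and wet points do not overlap, and AT3G53980 and AT2G37870 show the widest gaps.

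A chloroplast chaperonin gene led the named rises in p. Cpn60beta4, a subunit of the chloroplast chaperonin that in Arabidopsis is needed to fold the NdhH protein of the NDH complex, had signals of 7.09, 6.61 and 7.25 on dry arrays, against 5.09, 5.62 and 5.73 on wet arrays. Its lowest dry array, number 2, was still above every wet array, and the rise was 1.50 ± 0.25 (adjusted p = 0.00916). ATH1, a homeodomain factor that acts in light responses and in the timing of flowering, had signals of 6.78, 6.37 and 6.90 on dry arrays, against 4.90, 5.80 and 5.41 on wet arrays. It rose by 1.31 ± 0.27 (adjusted p = 0.0382). MTO2, the threonine synthase that draws on the precursor shared with methionine, had signals of 9.90, 9.62 and 9.92 on dry arrays, against 9.11, 9.01 and 9.14 on wet arrays, and rose by 0.72 ± 0.14 (adjusted p = 0.0225). The groups did not overlap for any of these 3 genes. They also rose on average in the other 6 accessions, Cpn60beta4 by 1.17, ATH1 by 1.23 and MTO2 by 0.51.

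Rises of MYB29 and scpl41 were found in Got-22 without a called mean change elsewhere. MYB29, a regulator of the genes for aliphatic glucosinolates, had signals of 7.34, 5.96 and 6.00 on dry arrays, against 5.50, 5.62 and 5.12 on wet arrays. Dry array 1 was well above the other dry arrays, and without it the change was 0.57 in place of 1.02 ± 0.21 (adjusted p = 0.0382), and was not called. Elsewhere MYB29 averaged between 5.08 and 5.53 in the dry groups and between 4.93 and 5.41 in the wet groups, and the mean change was 0.11. Among 18 genes for glucosinolates and camalexin MYB29 alone passed the threshold, and their median change was 0.11 against -0.0048 over all loci. scpl41, of the serine carboxypeptidase-like family, had signals of 6.73, 6.55 and 6.77 on dry arrays, against 5.41, 5.54 and 5.25 on wet arrays, a tight rise of 1.28 ± 0.23 (adjusted p = 0.0151). Tamm-2 had scpl41 levels of 6.68 dry and 5.80 wet, while the other 5 accessions were near the floor at both water levels, between 4.02 and 4.22. Accessions can differ in sequence under a probe, so low expression and poor hybridisation cannot be told apart for those 5.

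The remaining rises were of loci that the gene table does not name: AT5G45630 (1.61 ± 0.33), AT3G48200 (1.48 ± 0.26), AT5G42310 (1.04 ± 0.19), AT5G39785 (0.70 ± 0.15) and AT3G57810 (0.60 ± 0.12).

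Falls were smaller than the leading rises, and 2 of the 8 loci were near the array floor on dry arrays. SAUR12, of the small auxin up RNA family whose members respond quickly to auxin, had signals of 4.56, 4.59 and 4.56 on dry arrays, against 5.05, 5.42 and 5.53 on wet arrays. The dry arrays were nearly equal and below every wet array, a fall of -0.77 ± 0.12 (adjusted p = 0.00776). SAUR63, a member that promotes organ elongation in Arabidopsis, had signals of 4.01, 4.31 and 4.21 on dry arrays, near the floor, against 4.78, 5.73 and 4.67 on wet arrays. Its fall was -0.88 ± 0.17 (adjusted p = 0.0309), and -0.54 without wet array 2, where it was not called.

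RLP52, a receptor-like protein, had signals of 4.02, 4.14 and 3.91 on dry arrays, near the floor, against 5.08, 4.34 and 4.59 on wet arrays, a fall of -0.65 ± 0.10 (adjusted p = 0.00776). NDB3, a type II NAD(P)H dehydrogenase of the mitochondrial outer face, had signals of 4.64, 4.55 and 4.33 on dry arrays, against 4.85, 5.11 and 5.97 on wet arrays, a fall of -0.80 ± 0.15 (adjusted p = 0.0225). Wet array 3 was the highest for NDB3, and the fall was -0.47 without it. AT1G23040, unnamed in the gene table, averaged 7.59 ± 0.45 on dry and 9.04 ± 0.23 on wet arrays (SD, n = 3 each), the largest fall at -1.44 ± 0.25 (adjusted p = 0.0119). The other 3 falls were those of SAY1 (-0.53 ± 0.09), AT4G17350 (-0.51 ± 0.11) and MBF1A (-0.50 ± 0.10), which encodes a transcriptional coactivator.

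Genes of the chloroplast NDH complex were the list with the highest median change in Got-22. Subcomplex A has the subunits NDHL, NDHN and NDHO, subcomplex B the PNSB proteins, the lumen subcomplex the PNSL proteins, and NDHS and NDHT lie where ferredoxin binds. In the lumen subcomplex, PNSL2 had signals of 8.63, 7.26 and 8.80 on dry arrays, against 5.17, 5.97 and 6.34 on wet arrays, a change of 2.40 ± 0.76 (adjusted p = 0.244). PNSB1 had signals of 9.21, 8.06 and 9.20 on dry arrays, against 5.87, 7.33 and 7.44 on wet arrays, a change of 1.94 ± 0.51 (adjusted p = 0.142). Both showed the same order, with dry array 2 lowest of the dry arrays, wet array 1 lowest of the wet arrays, and no overlap.

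In subcomplex A, NDHN had signals of 8.34, 7.66 and 8.67 on dry arrays, against 5.54, 6.72 and 6.91 on wet arrays, a change of 1.83 ± 0.47 (adjusted p = 0.130). NDHL reached a change of 2.07 ± 0.73, PNSB3 of 1.87 ± 0.55, PNSL3 of 1.29 ± 0.36 and PNSB2 of 1.08 ± 0.25. For PNSB2 the signals were 8.77, 8.28 and 8.89 on dry arrays, against 6.98, 7.60 and 8.13 on wet arrays, and its adjusted p of 0.103 was the lowest of the list. The least change was that of PNSL5, a cyclophilin-like subunit, at 0.42 ± 0.21; it is named after its values were seen.

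Of the 15 measured NDH genes 0 passed limma's adjusted threshold and 15 were higher on dry arrays by their mean. By the unadjusted p 11 of 15 were higher, where 4.78% of all loci were, and 10 of 15 had every dry array above every wet array, where 6.78% of all loci did. Their median change was 1.29 against -0.0048 over all loci. Without dry array 2 the median was 1.61, without wet array 1 it was 1.11 and without both it was 1.47. The genes higher by the unadjusted p then numbered 14, 6 and 11 of 15, where 5.58%, 3.18% and 3.67% of all loci were. On 14 of the 15 genes dry array 2 and wet array 1 were each lowest in their group, the same pair of arrays that were highest for jasmonate genes. The other 6 accessions had median changes of 0.06 in Ag-0, 0.14 in Eden-1, 0.59 in Tamm-2, 1.04 in Omo2-3, 1.05 in Bil-5 and 1.15 in Ull2-5. In 14 of the 15 genes the Got-22 change was larger than the mean change of the others, and in 0 was the difference past even an unadjusted p of 0.05.

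**Figure D3:**
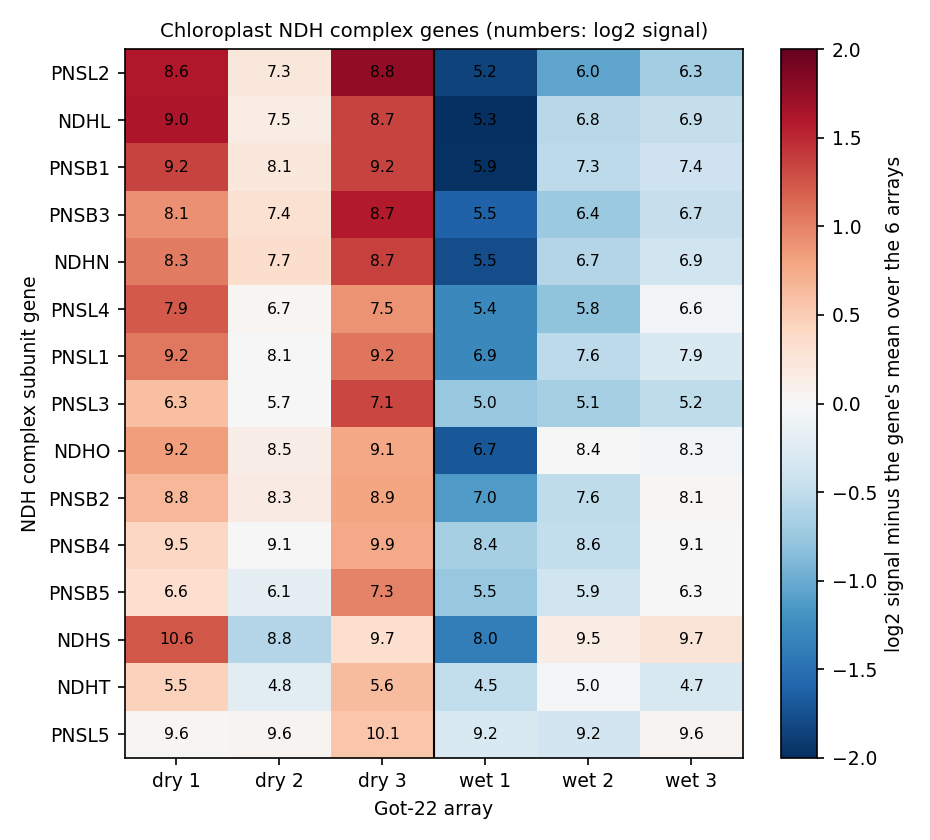
Log2 signal (numbers) of 15 NDH complex genes on the 6 Got-22 arrays, dry on the left and wet on the right, with colour showing the difference from each gene's mean over the 6 arrays. In most rows colours run from red on dry arrays 1 and 3 to blue on wet array 1, with dry array 2 and wet arrays 2 and 3 between them.

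Partners of the complex had similar values; these families were chosen after values were seen and have no test. Lhca6, an antenna protein that joins the complex to photosystem I, had signals of 9.62, 8.83 and 9.92 on dry arrays, against 6.26, 7.63 and 8.16 on wet arrays, a change of 2.11 ± 0.60. Lhca5, which joins it likewise, stood at 1.22 ± 0.35. Of 11 assembly and RNA factors named CRR, 10 were higher on dry arrays, with CRR7 (1.37 ± 0.42), CRR3 (1.26 ± 0.49) and CRR6 (1.19 ± 0.31) ahead and a median of 0.78. Among the 6 sigma factors that direct the plastid RNA polymerase, 5 were higher, with SIGA at 1.09 ± 0.27, and SIGE was lower at -0.54 ± 0.16. Dry array 2 and wet array 1 were each lowest in their group for 7 of the 11 CRR and 5 of the 6 sigma factor genes. The same held for Lhca5 and Lhca6, and for 3481 of all 21164 loci.

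Photosystem, antenna and Rubisco genes were higher as well, by smaller amounts. By their mean 27 of 27 were higher on dry arrays (26 of 27 after quantile normalization), 0 passed the threshold, 9 were higher by the unadjusted p, where 4.78% of all loci were, and 19 had every dry array above every wet array, where 6.78% did. The median change was 0.46. PSBO2, of the oxygen-evolving complex, had signals of 11.96, 11.20 and 11.79 on dry arrays, against 10.32, 10.46 and 10.32 on wet arrays, a change of 1.28 ± 0.42 (adjusted p = 0.270). PSBS, the sensor of excess light in photosystem II, had signals of 11.48, 11.28 and 11.71 on dry arrays, against 10.23, 10.37 and 10.69 on wet arrays, a change of 1.06 ± 0.38 (adjusted p = 0.313). Both kept the arrays apart, and their changes were the only ones on the list above 1. LHCB4.1 (0.53 ± 0.19) and LHCA3 (0.37 ± 0.16) were closer to the middle of the list. By the unadjusted p, 3 of 27 were higher without wet array 1, where 3.18% of all loci were, 3 without both wet array 1 and dry array 2, where 3.67% were, and 12 without dry array 2 alone, where 5.58% were. The Got-22 median was 0.55 without dry array 2, 0.33 without wet array 1 and 0.41 without both. In the other 6 accessions the median changes ran from -0.14 in Eden-1 to 0.42 in Ull2-5.

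Auxin genes lay on the other side. By their mean 19 of 19 early auxin response genes were lower on dry arrays (18 after quantile normalization and 17 after median centring), 1 fell, SAUR63 (0 after median centring), 4 were lower by the unadjusted p, where 4.73% of all loci were, and 10 had every dry array below every wet array, where 8.01% did. The median change was -0.50, against -0.0048 over all loci and a median of -0.07 for the list's mean changes in the other 6 accessions. GH3.3, an enzyme that couples auxin to amino acids, had signals of 4.44, 5.44 and 4.53 on dry arrays, against 6.71, 6.79 and 6.73 on wet arrays, a change of -1.94 ± 0.45 (adjusted p = 0.103). The wet arrays agreed within 0.1 and lay above every dry array. GH3.5, a related enzyme, had signals of 7.48, 7.26 and 6.69 on dry arrays, against 7.57, 8.94 and 8.38 on wet arrays, a change of -1.15 ± 0.38 (adjusted p = 0.266). IAA19, a repressor that auxin both induces and destroys, had signals of 7.17, 7.29 and 6.94 on dry arrays, against 7.72, 8.09 and 7.68 on wet arrays, a change of -0.70 ± 0.26 (adjusted p = 0.344). Neither GH3.5 nor IAA19 had overlapping groups. Without dry array 2, 18 of 19 were lower by their mean. Without dry array 2 and wet array 1, 14 of 19 had every dry array below the wet ones, where 19.9% of all loci did. By the unadjusted p 7 of 19 were then lower, where 4.39% of all loci were. Without wet array 1 alone 8 of 19 were lower by the unadjusted p, where 5.13% of all loci were. The wider SAUR family, counted after values were seen, includes SAUR63 of the auxin list. In this family 42 of 57 members were lower on dry arrays (35 after median centring). Of all 21164 loci 10898 were lower (9232 after median centring). The family's median was -0.06, and 24 members were near the floor in both groups.

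Cytokinin genes gave a mixed list. Type-A response regulators, which cytokinin induces and which damp its signal, were higher on dry arrays by their mean in 9 of 9, and AHP4, a phosphotransfer protein, was lower. ARR4 had signals of 8.81, 9.15 and 9.57 on dry arrays, against 8.62, 7.43 and 8.31 on wet arrays, a change of 1.05 ± 0.34 (adjusted p = 0.260). AHP4 had signals of 6.65, 5.13 and 3.76 on dry arrays, against 6.12, 7.85 and 7.99 on wet arrays, a change of -2.14 ± 0.77 (adjusted p = 0.311). ARR4 kept the groups apart, while AHP4 overlapped through dry array 1 and spread over nearly 3 log2 units on dry arrays. The list's median of 0.74 was 0.88 without dry array 2, 0.73 without wet array 1 and 0.78 without both, with 8 of 10 higher in each case. By the unadjusted p 2 of 10 were higher, where 4.78% of all loci were, and 4 without dry array 2, 2 without wet array 1 and 3 without both. The matching shares of all loci were 5.58%, 3.18% and 3.67%.

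Genes of starch synthesis and breakdown had a median change of 0.46, with 22 of 24 higher on dry arrays (23 after quantile normalization or median centring) and 0 past the threshold. APL1 of the starch list, a large subunit of the enzyme that makes ADP-glucose, had signals of 6.70, 5.69 and 7.02 on dry arrays, against 4.84, 5.04 and 5.01 on wet arrays, a change of 1.50 ± 0.66 (adjusted p = 0.446). Wet arrays of APL1 were nearly equal and below every dry array. SBE2.1 (0.79 ± 0.32), a branching enzyme, SS4 (0.50 ± 0.21), which starts granules, and LDA (0.35 ± 0.15), a debranching enzyme, had smaller differences. By the unadjusted p 4 of 24 were higher, where 4.78% of all loci were, and 5 without dry array 2, 0 without wet array 1 and 1 without both. The matching shares of all loci were 5.58%, 3.18% and 3.67%. The median was 0.54 without dry array 2, 0.31 without wet array 1 and 0.35 without both. In the other 6 accessions 18 of these 24 genes rose, where 11% of all loci did.

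Abscisic acid markers were not called. RAB18, a dehydrin, had signals of 7.92, 5.97 and 6.07 on dry arrays, against 4.87, 5.21 and 5.24 on wet arrays, a change of 1.55 ± 0.60 (adjusted p = 0.373). All dry arrays of RAB18 were above the wet ones, with dry array 1 far ahead. RD29A, a hydrophilic protein induced by drought and cold, had signals of 11.52, 10.45 and 9.36 on dry arrays, against 9.98, 11.98 and 11.12 on wet arrays, a change of -0.59 ± 0.68 (adjusted p = 0.887). RD29A overlapped between groups, as did COR15A (0.51 ± 0.76), a chloroplast cold protein, NCED3 (0.05 ± 0.47), the key enzyme of abscisic acid synthesis, and RD29B (0.02 ± 0.13).

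The mean differences of COR15A, NCED3 and RD29B turned negative without dry array 1 (-0.28, -0.22 and -0.02) and without wet array 1 (-0.39, -0.25 and -0.006), and that of RD29B without wet array 2 (-0.03). Of the clade A phosphatases, PP2CA had signals of 9.90, 9.39 and 9.07 on dry arrays, against 8.10, 8.83 and 8.84 on wet arrays, a change of 0.86 ± 0.26 without overlap (adjusted p = 0.225). HAI1 differed by 0.32 ± 0.17 and HAB1 by -0.62 ± 0.34, both with overlap. Of the 9 phosphatases 4 were higher by their mean and 5 lower, with a median of -0.05. CYP707A1, which breaks abscisic acid down, was at 0.66 ± 0.22, and ABCG25, which exports it, at -1.02 ± 0.45, both without overlap. Over 21 abscisic acid and drought genes the median change was -0.18. Of the 9 receptors 8 were lower, with a median of -0.51. None of these genes passed limma's threshold, and by the unadjusted p the drought list had 1 higher and 2 lower of 21, and the receptors 0 of 9, where 4.78% of all loci were higher and 4.73% lower. Without wet array 1, 2 of 9 receptors were lower by the unadjusted p, without both arrays 1 and without dry array 2 alone 0, and their median ran from -0.62 to -0.46. The drought list had 3 of 21 lower without dry array 2, 3 without wet array 1 and 4 without both, with medians from -0.27 to -0.17. Of all loci 4.64% were lower without dry array 2, 5.13% without wet array 1 and 4.39% without both.

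Stress and defence genes of other pathways showed single members apart. ORA59, a factor that joins jasmonate and ethylene signals, had signals of 6.06, 7.71 and 5.72 on dry arrays, against 9.31, 7.98 and 7.80 on wet arrays, a change of -1.87 ± 0.52 (adjusted p = 0.167). The groups did not overlap, although dry array 2 came within 0.1 of wet array 3. JAZ7 (1.82 ± 0.85) and LOX3 (1.26 ± 0.66) were higher with overlap, and JAZ12 (-0.56 ± 0.21) was lower without overlap, none called. By their mean 12 of the 17 jasmonate and ethylene genes were higher on dry arrays (11 after quantile normalization), but 7 without dry array 2. By the unadjusted p 1 was higher and 2 lower, where 4.78% and 4.73% of all loci were. The list's median was 0.14, and it was -0.16 without dry array 2, 0.46 without wet array 1 and 0.14 without both. Salicylic acid and defence genes had 0 of 19 past the unadjusted p and a median of -0.08, which was -0.17 without dry array 2, 0.12 without wet array 1 and -0.02 without both. In the other 6 accessions 12 of these 19 fell, where 9.96% of all loci did. NAP, a senescence regulator, had signals of 9.03, 8.89 and 8.22 on dry arrays, against 9.77, 9.63 and 10.11 on wet arrays, a change of -1.12 ± 0.49 (adjusted p = 0.442). Lists of aquaporins, expansins, sugar transporters, wax, anthocyanin, clock and heat shock genes had 0 members past the adjusted threshold in limma and medians between -0.19 and -0.02. Of their 12 to 26 genes, 0 to 2 a list were higher and 0 to 3 lower by the unadjusted p, where 4.78% and 4.73% of all loci were. The list with 3 lower was that of the 12 sugar transporters, through SUC2, STP13 and SWEET11. Of these, SUC2 and SWEET11 are also counted among the phloem markers below.

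Among markers of cell types that a leaf sample can hold, those of phloem had the lowest median. Of 6 phloem and vasculature markers 6 were lower on dry arrays, 0 fell, 5 were lower by the unadjusted p, where 4.73% of all loci were, and the median change was -0.56, against -0.31 for the list's mean changes in the others. Without dry array 2, 3 of 6 were lower by the unadjusted p, and 4 without wet array 1 or both, with medians from -0.75 to -0.61. Of all loci 4.64% were lower without dry array 2, 5.13% without wet array 1 and 4.39% without both. SUC2, the sucrose loader of companion cells, had signals of 9.45, 9.67 and 9.46 on dry arrays, against 9.69, 10.46 and 10.16 on wet arrays, a change of -0.57 ± 0.23 (adjusted p = 0.401). SWEET11, a sucrose exporter, was at -0.73 ± 0.35, also without overlap. Their list mean ran from 7.91 to 8.09 on dry arrays and from 8.39 to 8.64 on wet arrays. In a whole leaf, fewer cells of a type and less RNA per cell cannot be told apart, and the part of phloem in the other results was not tested. Dividing cell markers were higher by their mean in 7 of 7, where 10261 of all 21164 loci were. Of these markers 0 rose and 2 were higher by the unadjusted p, where 4.78% of all loci were. The largest change was that of CYCD3;1, a cyclin that cytokinin induces, at 1.77 ± 0.61 (adjusted p = 0.283). Its signals were 7.70, 7.98 and 7.24 on dry arrays, against 6.07, 5.52 and 6.01 on wet arrays. In the other 6 accessions its mean change was 1.18, which was called. The median of the dividing cell list was 0.17, and 0.21 to 0.23 without dry array 2, wet array 1 or both, with 6 of 7 higher without wet array 1 or both. Guard cell markers had a list mean from 4.67 to 4.86 on dry and 4.58 to 4.80 on wet arrays, with 3 of 11 near the floor. Root markers, with 3 of 7 near the floor, and floral markers had medians of 0.03 and 0.05.

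Beyond the listed genes, the largest changes without overlap that missed the threshold included XTH31, a xyloglucan-modifying enzyme of the cell wall, with signals of 6.44, 6.41 and 5.54 on dry arrays, against 4.09, 4.29 and 4.21 on wet arrays. Its change of 1.93 ± 0.68 had an adjusted p of 0.300. Wet arrays of XTH31 were near the floor and nearly equal. AT2G36145, unnamed, stood at 1.93 ± 0.50, and AT4G23670 and AT4G16146 at 1.94 ± 0.66 and 1.92 ± 0.69. At the lower end were AT3G16670 (-2.35 ± 0.85), AT1G21520 (-2.23 ± 0.58), AT2G43620 (-1.90 ± 0.72), AT1G43910 (-1.77 ± 0.54) and the mitochondrial locus ATMG00580 (-1.77 ± 0.66). KCS12, a fatty acid elongating enzyme on the wax list, stood at -1.71 ± 0.91, and CCOAMT, a methyltransferase, at -1.77 ± 0.66. Over all loci 159 means were higher by at least 1 and 106 lower by at least 1.

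Drying changes in Got-22 mostly had the direction of the other 6 accessions, whose arrays are separate from those of Got-22. Averaged over those accessions 2333 loci rose (11% of 21164) and 2107 fell (9.96%). In Got-22 90.8% of the first were higher on dry arrays and 94.7% of the second were lower, against 69% of all loci that had the same sign in both. Median changes of the loci that rose elsewhere were 0.30 in Got-22 and 0.36 in the others, and of those that fell -0.32 in Got-22 and -0.36 in the others. Of the 51 that rose elsewhere by at least 1, 51 were higher in Got-22, and of the 129 that fell by at least 1, 128 were lower. All 12 loci that rose in Got-22 and 7 of the 8 that fell had the same sign elsewhere, and 13 of the 20 were also called there. RLP52 was the exception in sign, with a mean change of 0.02 in the others. The 7 loci not called elsewhere included some with little mean change there, such as NDB3 (-0.01), SAUR63 (-0.07) and AT5G39785 (0.08). The mean of scpl41 there, 0.11, combined 0.88 in Tamm-2 with -0.16 to 0.10 in the rest. Across loci the 2 sets of changes correlated at 0.752 (Pearson) and 0.634 (Spearman), a description over 21164 loci that share arrays and are not independent.

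**Figure D4:**
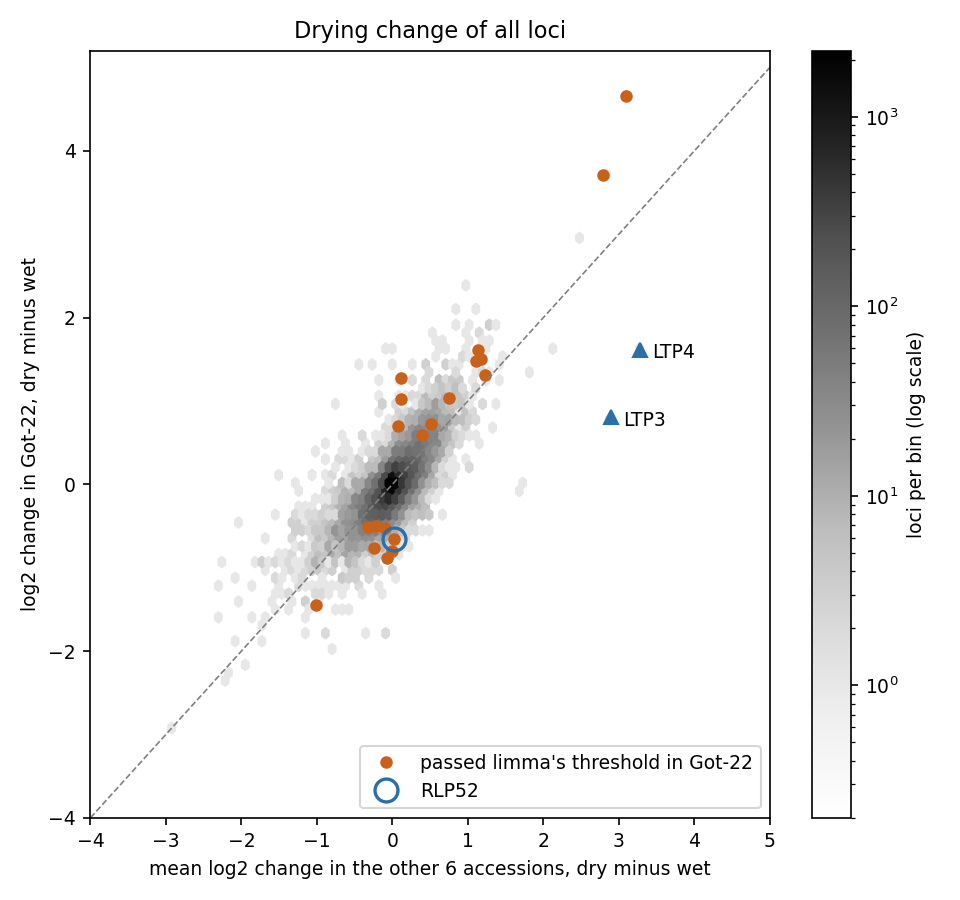
Log2 change of each locus in Got-22 (vertical axis) against the mean log2 change in the other 6 accessions (horizontal axis), both dry minus wet, with grey density for all 21164 loci, filled circles for the 20 called in Got-22, a ring around RLP52 and triangles for LTP3 and LTP4. The dashed line marks equal changes. Called loci lie near or above the line on the right, and the LTP pair lies below it.

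A test of the difference itself set the Got-22 change against the mean change of the others. By limma's adjusted p 0 loci had a higher change in Got-22 (0%) and 1 a lower one (0.00473%), and by the unadjusted p 461 differed (2.18%), 169 higher and 292 lower. The 1 called locus was RLP52, whose difference was -0.67 (adjusted p = 0.0319). Its wet Got-22 mean, 4.67, was the only RLP52 group mean above the floor, since dry Got-22 stood at 4.02 and the 12 groups of the other accessions between 3.83 and 4.14. The next smallest p-values belonged to NDB3 (-0.79, adjusted p = 0.412), scpl41 (1.17, adjusted p = 0.412), SAY1 (-0.43) and SAUR63 (-0.81), none called. The sole call was lost without dry array 1 (adjusted p = 0.219), dry array 3 (0.138), wet array 1 (0.0505) or wet array 3 (0.0767), and held without dry array 2 (0.0424) or wet array 2 (0.000114).

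**Figure D5:**
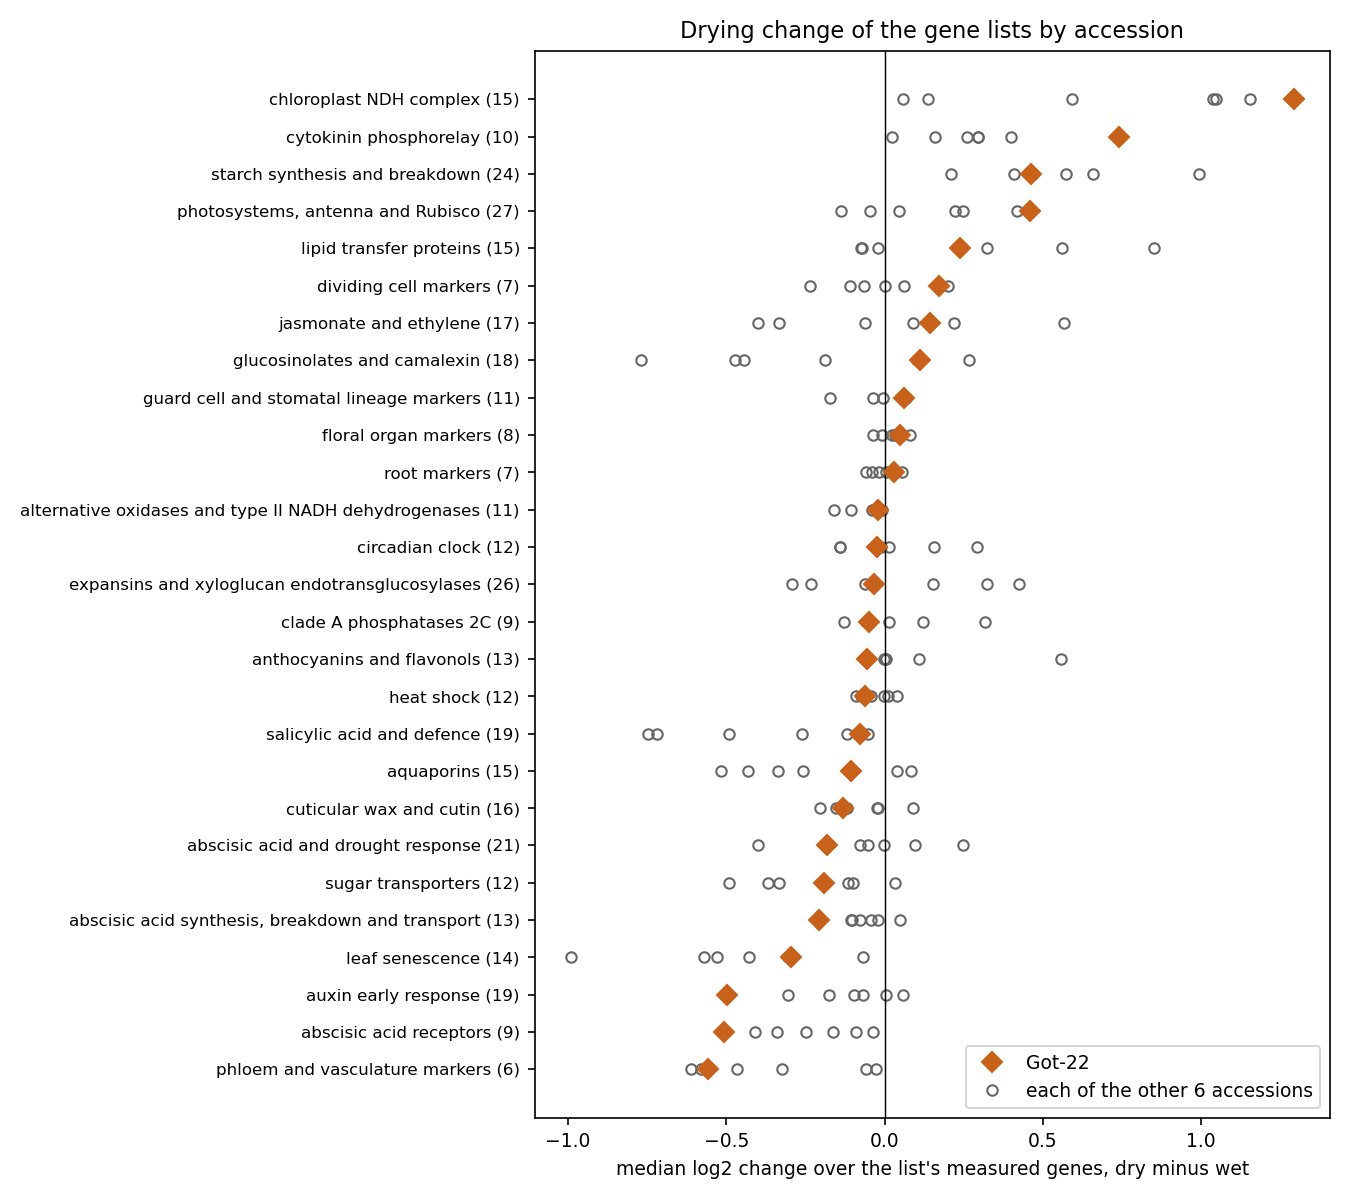
Median log2 change, dry minus wet (horizontal axis), over the measured genes of 27 lists (rows, with the number of genes measured), with a filled diamond for Got-22 and an open circle for each of the other 6 accessions. Got-22 lies beyond all 6 other accessions for the NDH list at 1.29, the cytokinin list at 0.74 and the photosystem list at 0.46. The same holds for the auxin list at -0.50 and the abscisic acid receptors at -0.51. It also holds for abscisic acid synthesis, breakdown and transport at -0.21. For starch genes Got-22 lies near the middle of the others, at 0.46. Without wet array 1 the Got-22 medians were 1.11 for the NDH list and 0.33 for the photosystem list. Both were then below those of Ull2-5, at 1.15 and 0.42. Without dry array 2 as well, the Got-22 medians were 1.47 and 0.41. These differences between list medians were not tested.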

How the data were processed

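Total RNA of rosette leaves was hybridised as biotin-labelled cRNA, per the labels' protocols. The authors deposited 1 log2 value per locus and array; that the unit is log2 was inferred from the range, 3.35 to 14.30. The submitters' processing notes name RMA and MAS5, without role or version. For genome build, probe filter and masking of polymorphic probes, the sources used here give nothing. The values were used as deposited and 0 loci were removed; 26 loci share their values with another locus.

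Names came from a RefSeq gene table of Arabidopsis thaliana, which matched 20972 of 21164 loci. A limma 3.58.1 model (R 4.3.3, with 27 residual and 2.06 prior degrees of freedom after eBayes) held a mean for each of 14 groups of accession by water. Contrasts were Got-22 dry minus wet, the mean of the other 6 accessions, and their difference; two-sided p-values received Benjamini-Hochberg adjustment over the whole table. The script was tested on simulated data. Signals have no count behind them, so precision is limited by how many arrays there are.

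The 27 lists (383 of 419 loci measured), members and named loci were chosen with earlier results of these data known. The naming rule picked all called loci, and the 10 largest other changes without overlap in each direction whose mean was above the 25th percentile. It also picked the 10 smallest p-values against the other accessions and up to 4 members with the smallest p per list. RD29A, RD29B, RAB18, COR15A, NCED3, HAI1, LTP3 and LTP4 were added whatever their value. Not every locus so picked is named in the text, and exceptions to the rule are stated. Alternatives were quantile normalization, median centring, no low loci, eBayes with trend and robust set, array quality weights, a replicate block, Got-22 alone, each Got-22 array left out, and others without Bil-5. Leaving out dry array 2 and wet array 1 together, the alternatives for the other accessions, the scalings of the lists and the gene families were added after seeing the data.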

Additional observations from a re-analysis of the deposited data

Results flagged for a closer look

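The drying change of RLP52 in Got-22 differed from the mean change of the other 6 accessions by -0.67 on the log2 scale (adjusted p = 0.0319, limma), the 1 difference past the threshold among 21164 loci. In Got-22 all 3 dry arrays were below all 3 wet arrays, while single accessions elsewhere had changes between -0.05 and 0.07. The difference ran from -0.47 to -0.84 over the alternatives, with adjusted p between 0.000114 and 0.653. Signals near the array floor in all groups but wet Got-22 accompany it, and their part in the result was not tested.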

How the results depend on the processing

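The 12 rises and 8 falls kept their sign under the alternatives run for them, but their number did not hold. Rises numbered 62 with array quality weights, 0 in a fit of the 6 Got-22 arrays alone (929 at an unadjusted p under 0.05), and 5 without dry array 2 and wet array 1; falls numbered 80, 0 (1243 unadjusted) and 10 there, 4 without the lowest 25% of loci and 5 with trend and robust set. Leaving out 1 array gave 0 to 17 rises (0 without dry array 1, 2 without wet array 1, 5 without dry array 3 or wet array 2) and 1 to 17 falls (1 without dry array 1 or dry array 3, 4 without wet array 2, 13 without wet array 1, 17 without wet array 3). Of the 20 calls, quantile normalization kept 19, median centring 19, quality weights 20, trend and robust set 14, and the table without the lowest 25% of loci 15 of the 18 it tested. Differences from the other accessions numbered 0 to 2 higher and 0 to 2 lower on leaving out 1 array. Lower calls numbered 0 with median centring and with quality weights, and 2 without dry array 2 and wet array 1. They also numbered 0 without the lowest 25% of loci, but that filter removed RLP52, so it cannot tell whether the call holds. Loci changed in the other accessions numbered 3117 to 5237 throughout. The cause of these shifts was not tested.

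Replicate numbers did not pair the samples: deviations of same-numbered dry and wet arrays correlated at -0.192, -0.493 and 0.062, and dry array 2 correlated best with wet array 1. The replicate block gave 6 rises, 5 falls and 0 lower differences, and kept 7 of the 20 calls.

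Among the genes picked by the naming rule, signs turned for 9, all uncalled. Other list members were not checked singly. Quality weights gave 0.0782 for SAG101, -0.0171 for PYK10 and -0.199 for NCED3. Leaving out 1 array gave -0.743 to 0.124 for ICS1, with 0.0239 without dry array 3 and the highest without wet array 1; -0.706 to 0.0420 for TIP1;1, the highest without dry array 1; -0.650 to 0.0428 for ELF4 and -0.269 to 0.0177 for HSP17.4, both highest without wet array 3; and -0.0579 to 0.176 for PYK10, the lowest without dry array 3. COR15A ran from -0.386 to 1.12, NCED3 from -0.250 to 0.221 and RD29B from -0.0309 to 0.0926. Without dry array 2 and wet array 1 together the values were -0.117 for COR15A, -0.0737 for NCED3 and -0.0176 for RD29B.

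Groups of 3 arrays, and values near the array floor such as those of RLP52 and SAUR63 on dry arrays, limit what can be resolved.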
